A study of Mus musculus with 60 samples.

Results

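The genes described here are the 34 nuclear genes of respiratory complexes II, III and IV, measured in the brains of mice that lack paraoxonase 2 (PON2) and of their wild-type littermates. They were chosen by symbol, from a list of subunits and assembly factors of succinate dehydrogenase, cytochrome bc1 and cytochrome c oxidase. No measured value served as a filter, but the list was made with earlier results of these data known. All 34 were found among the 20423 genes of the deposited count table. They comprise 4 subunits of complex II, 9 of complex III, cytochrome c, 10 subunits of complex IV, Cox7a2l and 9 assembly factors of complex IV.

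The mice were wild-type or homozygous PON2-deficient animals on a C57BL/6J background, bred from heterozygous parents, and both genotypes went through behavioural tests before they were killed at 3 to 4 months of age. Cortex, striatum and cerebellum were dissected fresh, frozen and ground to powder, and total RNA was read as 150 nt pairs. There were 60 libraries, in 12 groups of region, sex and genotype with 5 libraries each. The deficiency is inherited and not limited to a tissue, and the labels do not say whether libraries of different regions came from the same mouse. The p-values therefore measure the spread between these libraries. In whole tissue, fewer cells of a type and less RNA per cell cannot be told apart.

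These complexes form the later part of the mitochondrial electron transport chain. Complex II oxidises succinate in the citric acid cycle and passes the electrons to ubiquinone. Complex III carries them from ubiquinol to cytochrome c and pumps protons, and complex IV, cytochrome c oxidase, hands them to oxygen and pumps protons as well. All subunits of complex II are encoded in the nucleus, whereas complex III holds 1 subunit and complex IV holds 3 that are encoded in mitochondrial DNA. Assembly factors bring copper and haem to the core of complex IV. Neurons draw most of their ATP from this chain, and PON2 is a lactonase of mitochondrial and endoplasmic reticulum membranes. The factors NRF1, GABP of the ETS family, YY1 and SP1 are known regulators of nuclear respiratory genes.

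Pon2 itself served as the check of the genotype labels. It measured 55.5 ± 2.84 CPM (counts relative to the scaled library size, SD, n = 10) in wild-type cortex, 51.2 ± 3.80 CPM in striatum and 42.9 ± 4.16 CPM in cerebellum. In the PON2-deficient mice it fell by 4.01 on the log2 scale in cortex (edgeR adjusted p = 2.66e-17), by 3.74 in striatum (adjusted p = 1.23e-12) and by 5.82 in cerebellum (adjusted p = 2.19e-18). Library totals lay between 26.1 and 28.1 M counts, and from 19944 to 20229 genes were detected per library. The 8 neuron markers of each region were all detected there, and their summed level was highest in their own region in every library: 1656 to 2190 CPM for cortical markers in cortex, 3721 to 7390 CPM for striatal markers in striatum and 6919 to 7744 CPM for cerebellar markers in cerebellum.

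One library stood apart and bears on every striatal result. In PON2-deficient male 5 of striatum the mean precision weight given by the authors was 0.0527 of the median of its region. Its length slope, which is the slope of the log2 deviations of all genes from their regional mean on log2 transcript length, was -0.179, against -0.0543 to 0.0262 in the other 19 striatal libraries. A negative slope means that short transcripts read high. Of the 34 genes, 29 were higher in this library than in all 19 others, as were 27.8% of all genes. Cycs, cytochrome c, measured 233 CPM there against 80.2 to 104 CPM in the others, and Cox6a1, a complex IV subunit, 660 against 250 to 359 CPM. Its level over the median of the other 19 had a median of 1.75 over the 34 genes and of 1.003 over all genes. Cox15, an enzyme of haem A synthesis, was the 1 gene of the set below all others, at 0.612 of their median. Striatal comparisons of the 34 genes are therefore given with this library and in many cases also without it. A striatal value given once includes this library unless stated otherwise.

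To show the sequence around the starts of the genes on which the comparisons below turn, 4 promoters are printed as RefSeq gives them on GRCm38.p6. Uqcr11 and Cox7c are the pair with the smallest p for genotype in cortex, and Sdha and Cox6a1 moved in opposite directions between cerebellum and cortex. Each run starts 250 bases before the annotated start and ends at the edge of the GENCODE M21 gene, so it holds only bases outside that gene. All 4 lie on the minus strand and are written 5′ to 3′ on it. Capitals mark matches, on either strand, to GCATGCGC (NRF1), CCGGAAG (ETS), AAGATGGCG (YY1) or GGGCGG (SP1).
Uqcr11, chr10:80406831-80407071, minus strand: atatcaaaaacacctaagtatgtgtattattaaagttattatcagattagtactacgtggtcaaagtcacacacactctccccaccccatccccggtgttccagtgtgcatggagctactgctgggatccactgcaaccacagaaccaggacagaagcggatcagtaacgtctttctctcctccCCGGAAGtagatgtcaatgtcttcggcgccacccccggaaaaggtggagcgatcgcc
Cox7c, chr13:86046905-86047045, minus strand: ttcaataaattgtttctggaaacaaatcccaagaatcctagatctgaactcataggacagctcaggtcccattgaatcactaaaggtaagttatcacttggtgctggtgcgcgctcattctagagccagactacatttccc
Sdha, chr13:74350281-74350490, minus strand: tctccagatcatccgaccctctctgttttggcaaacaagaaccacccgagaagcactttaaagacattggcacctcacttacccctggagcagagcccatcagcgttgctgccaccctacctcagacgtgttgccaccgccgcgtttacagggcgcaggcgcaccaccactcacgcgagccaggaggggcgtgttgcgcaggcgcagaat
Cox6a1, chr5:115348982-115349208, minus strand: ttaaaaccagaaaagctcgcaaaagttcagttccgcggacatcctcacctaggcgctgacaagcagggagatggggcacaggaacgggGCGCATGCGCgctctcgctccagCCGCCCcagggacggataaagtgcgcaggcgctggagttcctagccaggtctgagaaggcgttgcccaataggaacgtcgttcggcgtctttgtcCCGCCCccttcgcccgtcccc

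The printed runs of Cox7c and Sdha held none of the 4 motifs, that of Uqcr11 held 1 ETS match, and that of Cox6a1 held 2 overlapping NRF1 matches on opposite strands and 2 SP1 matches. Over whole windows of 300 bases, from 250 before to 50 after the start, 26 of the 34 genes had an entry. The NRF1 letters occurred in 5 of these 26 (19.2%), namely Cox6a1, Cycs, Sdhb, Uqcr11 and Uqcrc1, against 4.99% of the 13627 measured genes with an entry. The ETS letters occurred in 13 (50%) against 16.3%, the SP1 letters in 13 (50%) against 61.9%, and the YY1 letters in Cox10 (3.85%) against 2.82%. These are matches of letters and not measured binding.

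Levels were compared between genes only per kilobase of transcript, for the 31 genes whose transcript lengths were agreed. In wild-type cortex the 9 complex IV subunits so measured had a median of 311 CPM per kb, the 8 complex III subunits 134, the 4 complex II subunits 67.1 and the 8 assembly factors 7.44. Cox7a2l, listed here as a supercomplex factor, stood at 102 CPM per kb and Cycs at 28.3. Whether its protein acts in supercomplexes in these mice was not measured. The same order of the 4 large groups held in striatum (299, 144, 69.1 and 8.47 CPM per kb) and cerebellum (270, 151, 68.5 and 8.47 CPM per kb). Cox8a was highest in cortex, at 610 CPM per kb, followed by Cox4i1 (572) and Cox6a1 (532). Sco1, a copper chaperone of complex IV, was lowest at 3.76 CPM per kb. Its counts are less certain wherever they are given, because 9 other genes of the count table share stretches of near-identical sequence with it. The whole counts of those genes sum to 305.1 CPM on average, against 8.853 CPM for Sco1 itself, and how many counts were misassigned was not measured.

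**Figure D1:**
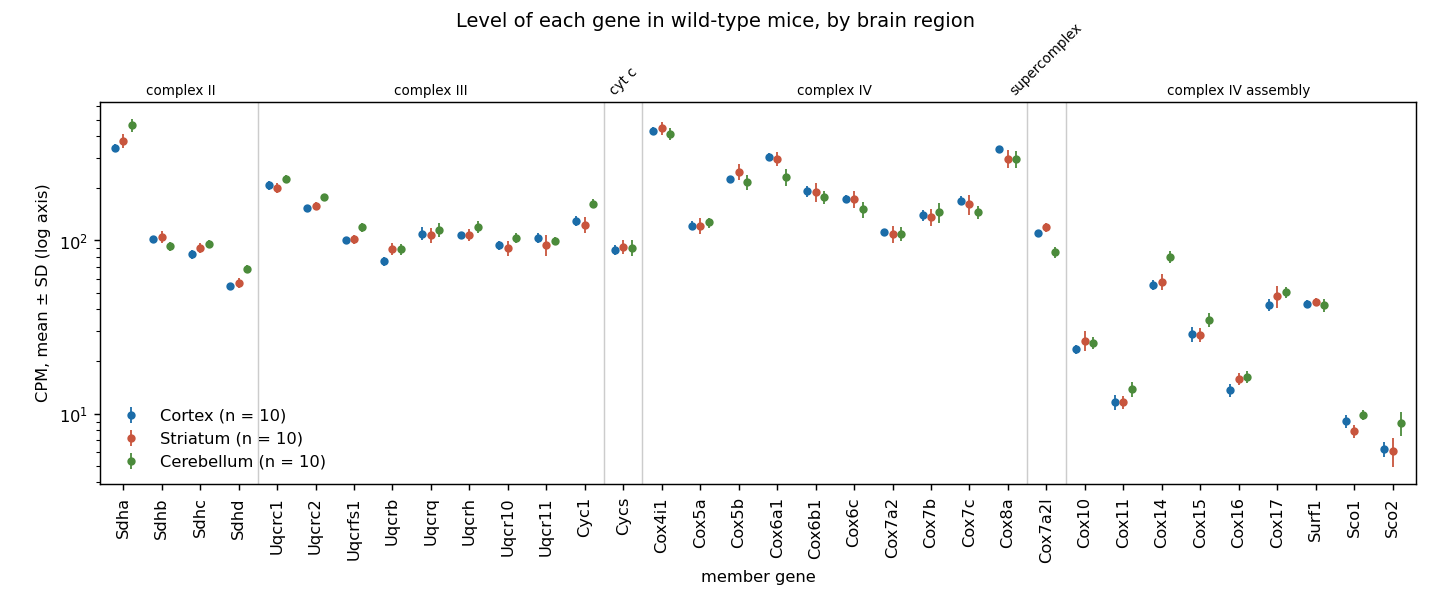
Level of each of the 34 genes in wild-type mice, as mean CPM with SD over 10 libraries, on a log axis and coloured by region. The genes are ordered by role, and most of the 3 regional means of a gene lie close together, with visible gaps for Sdha, Cox6a1, Cox7a2l and Cox14.

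Within complex II, the catalytic flavoprotein Sdha was higher in cerebellum (463 ± 40.4 CPM) than in striatum (377 ± 33.7) and cortex (342 ± 19.9), as means over 10 wild-type libraries. Sdhb, the iron-sulphur subunit, was lowest in cerebellum, with 92.6 ± 5.90 CPM there, 105 ± 8.45 in striatum and 102 ± 4.52 in cortex. The membrane anchors Sdhc and Sdhd measured 83.3 ± 4.67 and 54.8 ± 2.05 CPM in cortex and 95.5 ± 4.94 and 68.7 ± 3.73 CPM in cerebellum. Within complex III, Cyc1, the haem-bearing cytochrome c1, ran from 124 ± 13.7 CPM in striatum and 130 ± 8.89 in cortex to 163 ± 9.97 in cerebellum.

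For the other 8 subunits of complex III the wild-type means are given for cortex, striatum and cerebellum in turn. The core proteins Uqcrc1 and Uqcrc2 measured 209 ± 13.2, 201 ± 13.5 and 226 ± 12.1 CPM and 154 ± 4.74, 158 ± 8.999 and 178 ± 7.02 CPM. Uqcrfs1, the Rieske iron-sulphur protein, measured 101 ± 4.03, 102 ± 5.73 and 119 ± 7.04 CPM. The small subunits included Uqcrb (76.0 ± 4.55, 89.6 ± 7.33 and 88.8 ± 6.60 CPM), Uqcrh, the hinge protein (107 ± 4.06, 107 ± 8.70 and 120 ± 9.13 CPM), and Uqcr10 (93.7 ± 6.06, 90.4 ± 8.56 and 104 ± 6.30 CPM). Uqcrq (110 ± 9.63, 107 ± 10.6 and 115 ± 10.4 CPM) had regional means within an SD of each other. Uqcr11 measured 104 ± 7.09, 93.9 ± 13.0 and 99.3 ± 5.57 CPM, and its difference between striatum and cortex was -0.15 in wild-type libraries alone (edgeR adjusted p = 0.0364) and 0.00 over both genotypes (adjusted p = 0.986). Cycs, the mobile carrier, measured 88.5 ± 6.14, 92.0 ± 7.98 and 90.7 ± 9.58 CPM. Its counts are less certain, because 7 other genes of the count table share stretches of near-identical sequence with it. The whole counts of those genes sum to 184.7 CPM on average, against 92.55 CPM for Cycs itself. How many counts were misassigned was not measured.

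The complex IV subunits were flatter across regions or lower in cerebellum. Cox6a1, the ubiquitous form of subunit 6A, measured 304 ± 17.3 CPM in wild-type cortex, 297 ± 27.8 in striatum and 233 ± 25.7 in cerebellum. Its 10 cerebellar libraries ran from 203 to 277 CPM and its 10 cortical libraries from 270 to 328 CPM, so they overlapped narrowly. Cox4i1, the largest nuclear subunit, measured 432 ± 19.8, 445 ± 40.5 and 411 ± 33.1 CPM in the same order of regions. Cox5a and Cox5b, which bind the matrix side, measured 122 ± 7.41, 122 ± 13.3 and 127 ± 8.53 CPM and 226 ± 9.70, 250 ± 27.4 and 218 ± 21.5 CPM. Cox7a2 (111 ± 5.60, 109 ± 12.1 and 110 ± 10.3 CPM) and Cox7b (140 ± 9.55, 136 ± 15.5 and 145 ± 18.6 CPM) had regional means closer together than their SD. Cox6b1 (192 ± 13.0, 191 ± 23.8 and 178 ± 15.1 CPM), Cox6c (173 ± 9.11, 174 ± 19.8 and 151 ± 16.4 CPM) and Cox7c (170 ± 10.2, 162 ± 21.2 and 146 ± 12.4 CPM) had their lowest mean in cerebellum.

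Cox7a2l was lowest in cerebellum, at 78.1 to 95.7 CPM against 104 to 116 in cortex and 109 to 130 in striatum, with no overlap. The share of all genes without overlap between regions was not counted. Cox7a2l shares near-identical sequence with the pseudogene Gm6969, which counted 13.58 CPM on average against 105.4 CPM for Cox7a2l. Among the assembly factors Cox14, a regulator of Cox1 synthesis, was highest in cerebellum, at 70.4 to 92.5 CPM against 49.4 to 59.5 in cortex and 48.9 to 69.5 in striatum. Cox15 and Cox10, the enzymes of haem A and haem O synthesis, measured 28.7 ± 2.78, 28.5 ± 2.63 and 34.8 ± 3.31 CPM and 23.5 ± 1.503, 26.4 ± 3.38 and 25.7 ± 1.98 CPM in cortex, striatum and cerebellum. Cox11 measured 11.6 ± 1.14, 11.6 ± 0.947 and 13.8 ± 1.40 CPM, Cox16 13.7 ± 1.16, 15.8 ± 1.25 and 16.3 ± 1.26 CPM, and Cox17 42.5 ± 3.41, 47.8 ± 7.06 and 50.3 ± 3.84 CPM. Surf1 was flat, at 42.8 ± 2.27, 44.4 ± 2.44 and 42.3 ± 3.48 CPM.

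The regions were compared in 1 fit over all 60 libraries and 20387 genes, with both genotypes and sexes weighted equally. Cerebellum differed from cortex in 23 of the 34 genes at an adjusted p under 0.05, 17 of them higher and 6 lower. Over all genes 79.6% passed, 40.1% higher and 39.5% lower, so a passing gene is the rule between these regions. The median log2 difference over the 34 was 0.13, against 0.00 over all genes. By role, complex III had 7 of 9 genes passing higher and none lower, and complex II had 3 passing higher and 1 lower. The assembly factors had 6 of 9 passing higher and none lower. The complex IV subunits had 1 of 10 passing higher, Cox7b, and 4 lower, namely Cox6a1, Cox8a, Cox6c and Cox7c. Their lower count was near the share of all genes that passed as lower, 39.5%. In wild-type libraries alone Cox7b did not pass (0.05, edgeR adjusted p = 0.474), while the 4 lower genes passed there too. Of the 2 complex III genes that did not pass, Uqcr11 had a log2 difference of 0.02 over both genotypes and -0.07 in wild-type libraries alone.

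The 3 largest rises in cerebellum over cortex were those of Sco2, Cox14 and Sdha. Sco2, which delivers copper to complex IV, measured 5.18 to 7.29 CPM in wild-type cortex and 6.32 to 10.5 CPM in cerebellum, overlapping in part, and was higher by 0.55 (SE 0.0652, adjusted p = 6.78e-11). Sco2 shares its locus with Tymp on the same strand and Ncaph2 on the opposite strand, and the strand of the counting is not given in the sources used here. Cox14 was higher by 0.53 (SE 0.0560, adjusted p = 1.86e-12), with no overlap between the regions. Sdha was higher by 0.43 (SE 0.0354, adjusted p = 1.95e-16), with wild-type ranges of 388 to 535 CPM against 315 to 374 CPM.

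The 3 largest falls were Cox6a1 (-0.40, SE 0.0680, adjusted p = 5.69e-07), Cox7a2l (-0.34, SE 0.0561, adjusted p = 2.18e-07) and Cox8a (-0.18, SE 0.0516, adjusted p = 0.00151). Cox8a, a small subunit of complex IV, measured 336 ± 15.1 CPM in wild-type cortex and 296 ± 33.7 CPM in cerebellum. Sdhb was the 1 complex II gene that fell, by 0.13 (SE 0.0503, adjusted p = 0.0138), while its partners Sdha, Sdhc and Sdhd rose. Without PON2-deficient male 5 of striatum, which enters this fit through the shared spread, 20 genes passed higher and 7 lower (81.4% of all genes passed), and the values of the genes named here moved by at most 0.01.

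Cerebellum against striatum gave 13 genes higher and 7 lower, where 39.7% and 40.2% of all genes passed (79.8% in all), and the median of the 34 was 0.04. Without PON2-deficient male 5 the counts were 18 and 6 (80.9% of all genes passed) and the median 0.09. Sco2 was again the largest rise (0.64, SE 0.0654, adjusted p = 5.84e-13), followed by Cyc1 and Cox14. Cyc1 ranged from 104 to 155 CPM over the 20 striatal libraries and from 142 to 175 CPM over the 20 cerebellar ones, and rose by 0.45 (SE 0.0313, adjusted p = 4.37e-19). Cox14 rose by 0.39 (SE 0.0559, adjusted p = 9.65e-09), and by 0.46 without that library.

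Among the falls against striatum, Cox7a2l fell by 0.52 (SE 0.0561, adjusted p = 2.69e-12), and by 0.45 without the library. Cox6a1 fell by 0.39 (SE 0.0680, adjusted p = 9.48e-07), or 0.30 without it. Cox6c fell by 0.26 (SE 0.0635, adjusted p = 0.000254), or 0.17 without it. By role, complex III had 6 of 9 genes passing higher and none lower, and assembly factors 5 of 9 higher and none lower. Complex IV subunits had none higher and 5 of 10 lower (Cox4i1, Cox5b, Cox6a1, Cox6c and Cox7c). Of all genes 39.7% passed as higher and 40.2% as lower. Without PON2-deficient male 5 the complex IV subunits had 3 passing higher and 4 lower, near the shares of all genes (40.5% and 40.4%).

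Striatum and cortex were closer to each other. Of the 34 genes 11 were higher in striatum and 3 lower, where 28.8% and 28.2% of all genes passed (57.0% in all), and the median was 0.05. Without PON2-deficient male 5 the counts were 8 and 5 (60.1% of all genes passed) and the median 0.01. Cox17, the copper chaperone that supplies Sco1 and Sco2, was the largest rise (0.30, SE 0.0600, adjusted p = 1.94e-05), with 0.23 (adjusted p = 8.97e-07) without that library. Its 20 cortical libraries ran from 35.9 to 46.5 CPM and its other 19 striatal libraries from 43.9 to 66.8 CPM. Uqcrb, a small subunit of complex III, rose by 0.26 (SE 0.0474, adjusted p = 3.19e-06; 0.21 without the library). Cox16, which acts in complex IV assembly, rose by 0.21 (SE 0.0431, adjusted p = 4.79e-05; 0.17 without it), and shares its locus with Gm20498 on the same strand.

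The 3 genes lower in striatum were Cox8a, Sco1 and Cyc1. Cox8a fell by 0.17 (SE 0.0516, adjusted p = 0.00507), and by 0.21 without PON2-deficient male 5. Its adjusted p was 0.0544 when replicate 2 of every group was left out. Sco1 fell by 0.16 (SE 0.0368, adjusted p = 0.000168), from 9.06 ± 0.795 to 7.88 ± 0.658 CPM in wild-type mice. Cyc1 fell by 0.14 (SE 0.0313, adjusted p = 0.000136), but by 0.07 in wild-type libraries alone (adjusted p = 0.299). Cycs, Cox10 and Cox14 passed as higher in striatum with all libraries and did not pass without PON2-deficient male 5 (adjusted p = 0.136, 0.103 and 0.0780).

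**Figure D2:**
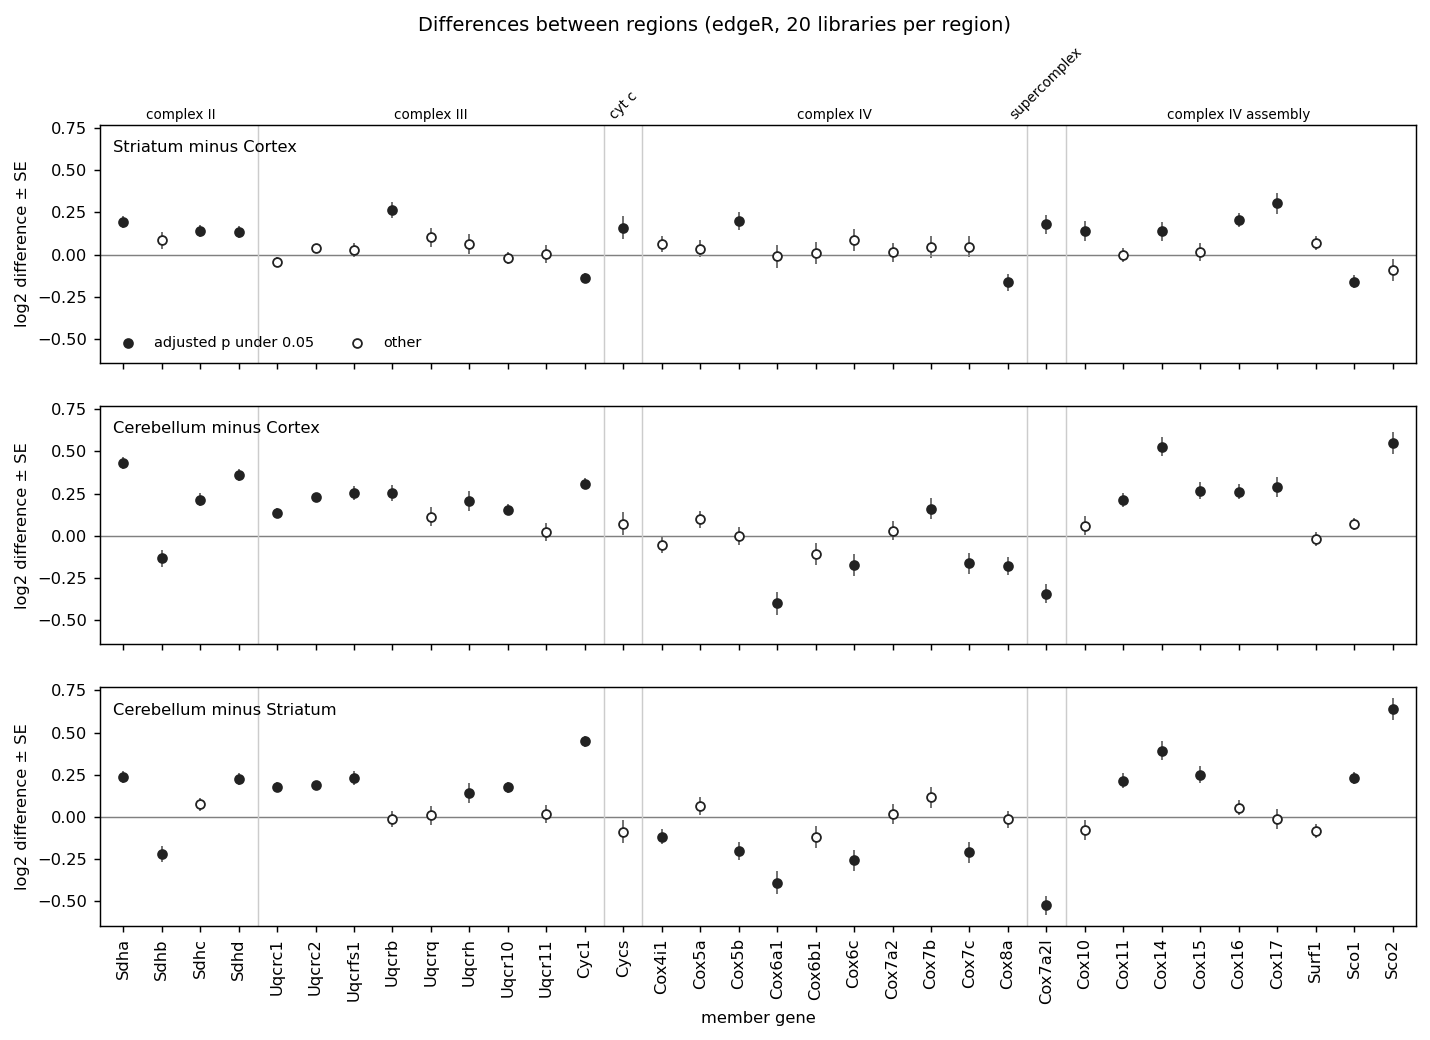
Log2 difference between regions for each of the 34 genes with its SE, from the edgeR fit over all 60 libraries. The panels show, from top to bottom, striatum minus cortex, cerebellum minus cortex and cerebellum minus striatum. In the middle panel the complex III genes lie above 0 and most complex IV subunits below it, from -0.40 for Cox6a1 to 0.55 for Sco2.

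The other genes of the pathway followed other patterns between the regions. The 4 subunits of complexes III and IV that mitochondrial DNA encodes were all lower in cerebellum than in cortex, 3 of them passing, and lower than in striatum, 4 passing with and without PON2-deficient male 5. Of all genes 39.5% passed as lower against cortex and 40.2% against striatum. mt-Cytb, cytochrome b of complex III, measured 8538 ± 316 CPM in wild-type cortex, 11083 ± 1139 in striatum and 6743 ± 549 in cerebellum, and was lower in cerebellum than in cortex by a log2 difference of -0.44 (SE 0.0312, adjusted p = 8.51e-19). mt-Co1, the catalytic subunit of complex IV, differed by -0.36 (SE 0.0272, adjusted p = 6.44e-18). So Cyc1 and mt-Cytb, which are partners in complex III, differed between cerebellum and cortex in opposite directions.

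Of 14 regulators of nuclear respiratory genes, 12 were higher in cerebellum than in cortex and 1 lower, where 40.1% and 39.5% of all genes were. They included Esrrg, an oestrogen-related receptor (1.71, SE 0.0564), Gabpb2 (1.59, SE 0.0661) and Gabpb1 (0.69, SE 0.0376), both subunits of the ETS factor GABP, and the coactivator Ppargc1b (1.15, SE 0.0617), each with an adjusted p of at most 1.08e-23. Of 8 genes in a list of tissue-restricted complex IV isoforms, which also held the complex IV subunit Ndufa4, 6 were higher and 1 lower. Cox6a2, the muscle form of subunit 6A, measured 6.06 ± 0.824 CPM in wild-type cortex, 5.47 ± 1.44 in striatum and 0.298 ± 0.318 in cerebellum (-3.90 against cortex, SE 0.273, adjusted p = 4.28e-19). Cox7a1, the muscle form of subunit 7A, rose from 1.65 ± 0.368 to 5.16 ± 0.745 CPM (1.62, SE 0.0921, adjusted p = 7.14e-23). Of 21 other assembly and translation factors of complex IV, 10 were higher and 6 lower in cerebellum, and of 10 such factors of complexes II and III, 3 were higher and 6 lower.

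In cortex, none of the 34 genes passed the threshold for an effect of PON2 deficiency over both sexes (edgeR, 20 libraries, 18972 genes), and 0.0316% of all genes did. Their direction was mostly down, with 30 of 34 lower in the PON2-deficient mice and a median log2 difference of -0.04, against 50.2% of all genes lower. At an unadjusted p under 0.05 there were 7 of 34 (20.6%), against 11.4% of all genes. Lower values were found for 4 of 4 complex II subunits, 8 of 9 complex III subunits, 9 of 10 complex IV subunits and 7 of 9 assembly factors. The log2 differences ranged from -0.16 to 0.10. DESeq2 called 2 of the genes, Cox7c (adjusted p = 0.00158) and Uqcr11 (adjusted p = 0.00342), in a comparison where it called 1.25% of all genes, and limma with sample quality weights called Uqcr11 (adjusted p = 0.0498, with 0.179% of all genes called).

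The 4 genes with the smallest p in cortex were Cox7c, Uqcr11, Sdhd and Cox10. Cox7c, a small subunit of complex IV, measured 169, 163, 185, 160 and 188 CPM in the wild-type females and 151, 157, 164, 155 and 164 CPM in the PON2-deficient females. In males it measured 167, 166, 172, 175 and 156 CPM in wild-type mice and 154, 151, 140, 144 and 146 CPM in PON2-deficient mice, so the groups overlapped in females and were apart in males. The log2 difference over both sexes was -0.16 (SE 0.0330, adjusted p = 0.0652). Cox7c resembles the pseudogenes Gm10012 and Gm12338, which together counted 5.39 CPM.

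Uqcr11, the smallest subunit of complex III, measured 104, 108, 98.1, 91.8 and 99.4 CPM in wild-type females and 95.6, 103, 103, 95.8 and 103 CPM in PON2-deficient females. In males it measured 109, 102, 109, 117 and 101 CPM in wild-type mice and 87.9, 92.5, 85.8, 81.8 and 84.6 CPM in PON2-deficient mice. The female groups overlapped and the male groups did not. Over both sexes the log2 difference was -0.16 (SE 0.0346, adjusted p = 0.0736).

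Sdhd, an anchor of complex II, had a log2 difference of -0.08 (SE 0.0303, adjusted p = 0.333). Its wild-type values were 55.7, 55.8, 54.6, 51.8 and 56.2 CPM in females and 53.2, 53.9, 52.3, 58.5 and 56.0 CPM in males. The PON2-deficient values were 51.2, 50.0, 52.9, 51.6 and 55.7 CPM in females and 49.0, 53.7, 52.5, 54.3 and 49.6 CPM in males, overlapping in both sexes. Cox10, which makes haem O for complex IV, went the other way with 0.10 (SE 0.0395, adjusted p = 0.339). It measured 20.6 to 25.8 CPM in wild-type and 23.5 to 27.1 CPM in PON2-deficient cortex.

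Tested in males alone, Uqcr11 was the 1 gene of the 34 that fell, by 0.31 on the log2 scale (SE 0.0491, adjusted p = 0.0165), where 0.148% of all genes passed, 0.0369% as lower. DESeq2 called 2.28% of all genes and 3 of the 34, Uqcr11, Cox7c and Uqcrq, all lower. Without PON2-deficient male 3 of cortex it did not pass (-0.31, adjusted p = 0.0788), and over the fits with 1 cortical library left out the difference ranged from -0.34 to -0.29. In males 27 of the 34 were lower, with a median of -0.07, and 9 had an unadjusted p under 0.05 (14.0% of all genes did). The next smallest adjusted p values were those of Cox7c (-0.19, adjusted p = 0.0880) and Uqcrq (-0.22, adjusted p = 0.0986). In Uqcrq, Uqcr10, Uqcr11, Cox5b and Cox7c all 5 PON2-deficient males lay below all 5 wild-type males, and 2.66% of all genes were apart in either direction.

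In females none of the 34 passed (edgeR, 0.00527% of all genes), 3 had an unadjusted p under 0.05 (6.6% of all genes), 21 were lower and the median was -0.01. Cox7c had the smallest p (-0.13, SE 0.0467, adjusted p = 0.626), and Uqcr11 had a log2 difference of -0.01. The difference between the male and the female effect was -0.31 for Uqcr11 (SE 0.0693, adjusted p = 0.249), which did not pass. None of the 34 passed this test of the difference (0.0% of all genes), and 8 had an unadjusted p under 0.05 (9.56% of all genes). DESeq2 called Uqcr11 (-0.30, adjusted p = 0.0159) and 0.269% of all genes.

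Technical and cellular measures differed between the genotype groups in cortex males. The length slope lay between -0.0379 and -0.00306 in the wild-type males and between -0.00774 and 0.0182 in the PON2-deficient males, and Uqcr11 and Cox7c have short transcripts of 445 and 540 bases. With the length slope as a covariate none of the 34 passed in males (edgeR, 0.0158% of all genes), 5 had an unadjusted p under 0.05 (10.7% of all genes), 18 of 34 were lower, and Uqcr11 had a log2 difference of -0.23 (SE 0.0755, adjusted p = 0.263). Over both sexes 18 of 34 were then lower, with Cox7c at -0.13 (adjusted p = 0.181) and Uqcr11 at -0.12 (adjusted p = 0.243). Over both sexes 30 were lower without that covariate. The slopes of the 2 genotypes overlapped in males only from -0.00774 to -0.00306, so length slope and genotype cannot be told apart there. In males the 8 ependyma markers were all lower in the PON2-deficient mice (median -0.64, summed level 9.63 to 14.5 against 13.1 to 20.6 CPM) and so were the 8 oligodendrocyte markers (median -0.14, summed level 3848 to 4718 against 3477 to 5428 CPM). No marker passed the threshold and none was at 0 in these groups. Over both sexes the 10 choroid plexus markers were all lower (median -0.88, summed level 15.97 to 521 against 18.7 to 482 CPM). The part of these markers in the result was not tested beyond choroid plexus, whose mean as a covariate left 29 genes lower over both sexes.

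**Figure D3:**
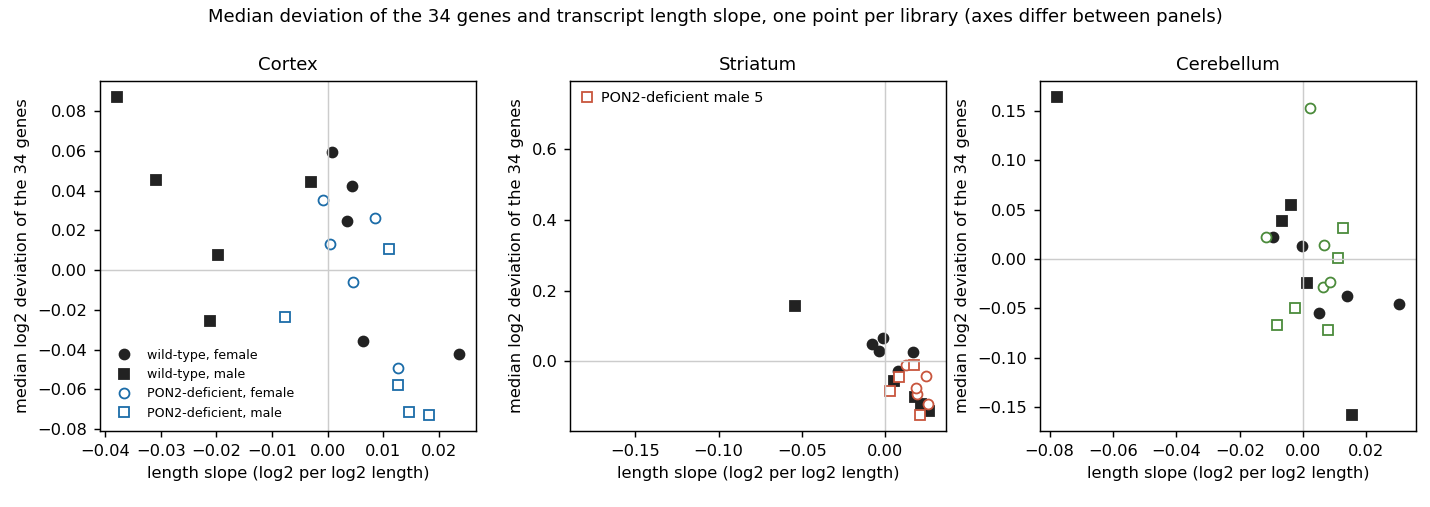
Median log2 deviation of the 34 genes from their regional means against the length slope, 1 point per library, in each region with its own axes. PON2-deficient male 5 of striatum sits alone at a slope of -0.179 and a deviation of 0.75, and in cortex the wild-type males lie at lower slopes and mostly higher deviations than the PON2-deficient males.

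In striatum the direction of the whole set depended on 1 library. With all 20 libraries none of the 34 passed for genotype (edgeR, 0.0105% of 18962 genes), 1 had an unadjusted p under 0.05 (4.94% of all genes), 26 were higher in PON2-deficient mice and the median was 0.05. Without PON2-deficient male 5, 28 of the 34 were lower and the median was -0.07. None then passed (0.0157% of all genes), and 7 had an unadjusted p under 0.05 (8.68% of all genes). All 10 complex IV subunits were higher with the library and all 10 were lower without it. The smallest adjusted p without it were those of Uqcrfs1 (-0.11, adjusted p = 0.447), and Cox6b1, a complex IV subunit on the side of the intermembrane space (-0.16, adjusted p = 0.474). DESeq2 called none with all libraries. With the length slope as a covariate and all libraries, 18 of the 34 were lower and 16 higher, and 50.1% of all genes were lower.

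The 4 genes with the smallest p in striatum were Cyc1, Uqcrq, Cox17 and Sdha. Cyc1 measured 113, 133, 128, 130 and 120 CPM in wild-type females and 119, 110, 113, 114 and 112 CPM in PON2-deficient females. In males it measured 122, 110, 116, 110 and 155 CPM in wild-type mice and 118, 122, 106, 104 and 109 CPM in PON2-deficient mice. The groups overlapped in both sexes, and the log2 difference was -0.13 with and without PON2-deficient male 5 (SE 0.0589, adjusted p = 0.982 with it). Cyc1 was the 1 gene of these 4 whose value in that library lay among the others.

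Uqcrq, a small complex III subunit, measured 115, 128, 102, 112 and 229 CPM in the PON2-deficient males, with male 5 the last, against 94.5 to 119 CPM in the wild-type males. Its log2 difference was 0.20 (SE 0.114, adjusted p = 0.995), and 0.07 without that library. Cox17 measured 52.6, 50.1, 49.5, 51.7 and 108 CPM in the PON2-deficient males against 44.1 to 50.5 CPM in the wild-type males, with a log2 difference of 0.21 (SE 0.123, adjusted p = 0.995), and 0.07 without it. In wild-type females 1 library had 66.8 CPM of Cox17 and the other 4 had 43.9 to 48.7 CPM. Sdha measured 354, 383, 425, 375 and 521 CPM in the PON2-deficient males against 324 to 435 CPM in the wild-type males, a log2 difference of 0.09 (SE 0.0646, adjusted p = 0.995), and 0.04 without it.

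**Figure D4:**
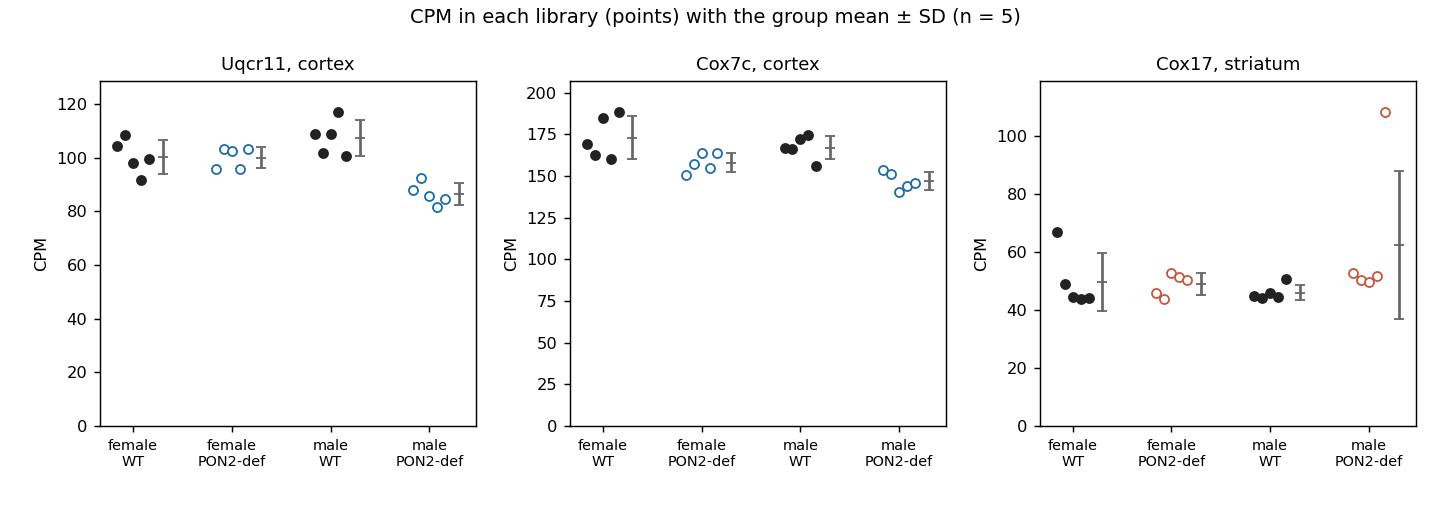
CPM in each library as points with the mean and SD of the 5 libraries of a group, for Uqcr11 and Cox7c in cortex and Cox17 in striatum. In cortex the PON2-deficient males lie below all wild-type males, and in striatum PON2-deficient male 5 lies at 108 CPM against 49.5 to 52.6 CPM in the rest of its group.

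In striatal females 31 of the 34 were lower in PON2-deficient mice, with a median of -0.10. None passed (edgeR, 0.00527% of all genes) and none had an unadjusted p under 0.05 (4.08% of all genes). Cyc1 had the smallest p there, with -0.13. PON2-deficient male 5 enters this fit through the shared spread. Without it 31 of 34 were again lower with a median of -0.10, none passed (0.0105% of all genes), and 6 had an unadjusted p under 0.05 (7.72% of all genes). These were Surf1 (-0.14, SE 0.0504, adjusted p = 0.549), Cox6b1, Uqcrb, Uqcrfs1, Cox4i1 and Sdhc, chosen here after their values were seen. In Sdhb, Cox4i1, Cox6b1 and Surf1, an assembly factor mutated in Leigh syndrome, all 5 PON2-deficient females lay below all 5 wild-type females, where 1.71% of all genes were apart in either direction. Cox6b1 measured 168, 177, 183, 167 and 167 CPM against 198, 213, 191, 215 and 188 CPM. The length slope in these groups was 0.0128 to 0.0260 in PON2-deficient and -0.00773 to 0.0165 in wild-type females. With the length slope as a covariate and all libraries, 19 of 34 were lower in females, with a median of -0.02. In that fit 48.9% of all genes were lower, and 1 of the 34 had an unadjusted p under 0.05 (7.27% of all genes). The 8 oligodendrocyte markers were all lower in the PON2-deficient females (median -0.24, 0 passing, summed level 7811 to 9657 against 8632 to 10614 CPM), and their part in the result was not tested.

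In striatal males 32 of 34 were higher with all libraries, with a median of 0.17, and 22 of 34 were lower without PON2-deficient male 5, with a median of -0.04. None passed in either fit (edgeR, 0.00527% and 0.00523% of all genes), and 2 and 0 genes had an unadjusted p under 0.05 (5.96% and 5.63% of all genes). Cox17 had the smallest p with all libraries (0.44, SE 0.174, adjusted p = 0.792), and had a log2 difference of 0.15 without that library (adjusted p = 0.920). With the length slope as a covariate and all libraries, 19 of 34 were higher and 15 lower in males, with a median of 0.01. The male effect minus the female effect was above 0 in 33 of 34 genes (median 0.29) with the library and in 30 of 34 (median 0.07) without it. None passed in either fit (0.0% of all genes in both). With the library 1 gene had an unadjusted p under 0.05 (4.31% of all genes), and without it 0 (4.63%). The 8 oligodendrocyte markers were all higher in the PON2-deficient males (median 0.25, 0 passing), with summed levels of 8171 to 9906 CPM against 7190 to 7592 CPM in the wild-type males and no overlap. The 8 ependyma markers were all higher as well (median 0.75, 0 passing), at 20.4 to 62.5 against 24.5 to 32.8 CPM, with the highest in male 5. The 10 choroid plexus markers were all lower (median -0.62, 0 passing), at 29.4 to 667 against 31.1 to 544 CPM, again with the highest in male 5. The part of these markers in the result was not tested.

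The spread between libraries shows the weight of this library as well. The coefficient of variation over PON2-deficient striatal libraries had a median of 23.95% over the 34 genes, and 5.37% without male 5. In wild-type striatum it was 9.30%. The medians in cortex were 6.05% in wild-type and 4.99% in PON2-deficient mice, and those in cerebellum 7.78% and 6.34%.

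In cerebellum the set was balanced, with 17 genes higher and 17 lower in PON2-deficient mice and a median of 0.00. None passed (edgeR, 0.0321% of 18710 genes), 4 had an unadjusted p under 0.05 (11.1% of all genes), and DESeq2 called none. Cox15 measured 35.0, 37.6, 33.4, 40.1 and 33.5 CPM in wild-type females and 34.2, 32.6, 29.6, 29.5 and 35.3 CPM in PON2-deficient females. In males it measured 37.7, 35.2, 31.8, 34.9 and 28.4 CPM and 29.6, 25.95, 27.1, 32.9 and 33.9 CPM. The groups overlapped in both sexes, and the log2 difference was -0.16 (SE 0.0603, adjusted p = 0.300).

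Sco1 had a log2 difference of -0.11 (SE 0.0506, adjusted p = 0.432). It measured 10.3, 10.4, 8.60, 9.60 and 9.82 CPM in wild-type males and 9.22, 8.84, 8.23, 8.41 and 8.56 CPM in PON2-deficient males, overlapping at 1 wild-type library. Sco1 shares stretches of near-identical sequence with other genes, so its counts are less certain. The other copper chaperone, Sco2, pointed the other way with 0.21 (SE 0.0965, adjusted p = 0.434), from 6.32 to 10.5 CPM in wild-type and from 7.73 to 12.5 CPM in PON2-deficient mice. Cox7b, a complex IV subunit, had a log2 difference of 0.12 (SE 0.0571, adjusted p = 0.432), from 125 to 185 CPM in wild-type and from 147 to 176 CPM in PON2-deficient mice.

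In cerebellar females 28 of 34 were higher (median 0.04), with Cox7b at 0.20 (adjusted p = 0.932), and in males 25 of 34 were lower (median -0.05), with Sco1 at -0.17 (adjusted p = 0.398). None passed in either sex (edgeR, 0.00534% and 0.0160% of all genes), and 4 and 1 had an unadjusted p under 0.05 (5.16% and 10.6% of all genes). With the length slope as a covariate 27 of 34 were higher in females (median 0.03). In males 18 of 34 were then lower (median -0.005). The male effect minus the female effect was below 0 in 30 of 34 genes (median -0.09), with none passing (0.0% of all genes), 1 gene at an unadjusted p under 0.05 (4.73% of all genes) and DESeq2 calling none. Over both sexes the number of lower genes ranged from 11 to 24 when 1 library was left out, with 11 without wild-type male 4.

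Markers of other cells differed between the genotype groups in cerebellum too, with 0 passing and with overlapping ranges. The 10 choroid plexus markers were all lower in the PON2-deficient mice (median -0.33, 0 passing), with summed levels of 34.3 to 2704 CPM (median 811) against 569 to 2242 CPM (median 1416). Their mean log2 CPM was 0.148 in PON2-deficient female 5 and 0.0747 in male 4, against 3.48 to 5.61 in the other PON2-deficient libraries. The 8 ependyma markers were all lower (median -0.28, 0 passing), at 30.2 to 54.9 against 37.5 to 50.6 CPM. In males the 8 astrocyte markers were all lower (median -0.07, 0 passing), at 3930 to 4179 against 4170 to 4492 CPM, which overlapped narrowly. None of these markers was at 0, and their part in the results was not tested.

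**Figure D5:**
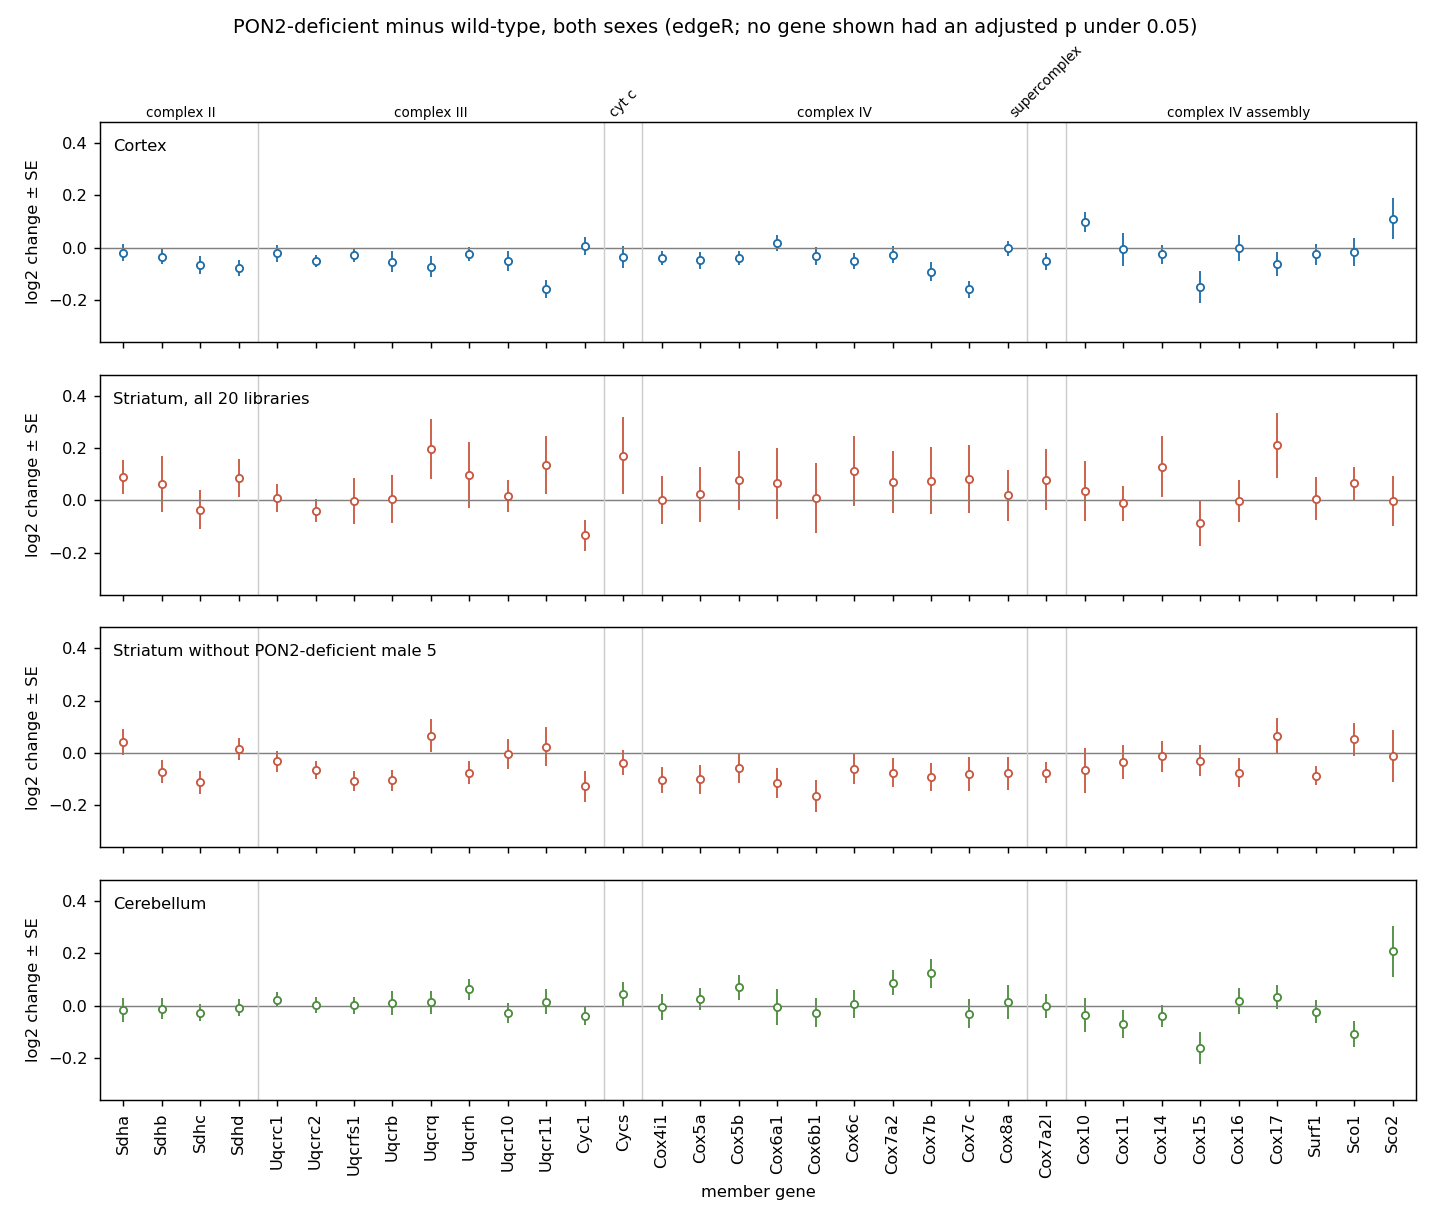
Log2 change of each of the 34 genes with its SE, PON2-deficient minus wild-type over both sexes, in cortex, in striatum with and without PON2-deficient male 5, and in cerebellum. In cortex 30 of 34 points lie below 0, and in striatum 26 lie above 0 with that library and 28 below 0 without it.

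Genotype effects were also compared between regions. Of the 34 genes none passed the test of the difference between striatum and cortex (0.0% of all genes), cerebellum and cortex (0.0147%) or cerebellum and striatum (0.00981%), in edgeR over 60 libraries. At an unadjusted p under 0.05 there were 5, 0 and 1 genes, against 6.3%, 4.15% and 5.97% of all genes. The smallest p was that of Uqcr11 between striatum and cortex (0.29, SE 0.108, adjusted p = 0.654), and it was 0.18 (SE 0.0790, adjusted p = 0.738) without PON2-deficient male 5 of striatum. Without that library none passed in the 3 tests (0.0%, 0.0245% and 0.0098% of all genes), and 2, 2 and 6 genes had an unadjusted p under 0.05 (5.99%, 5.59% and 6.62% of all genes). The smallest p for cerebellum against cortex and against striatum were then those of Cox7b (0.21, adjusted p = 0.628, and 0.22, adjusted p = 0.634).

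Between males and females none of the 34 genes passed the threshold. In edgeR the share of all genes that passed was 0.0896% in cortex, 0.105% in striatum and 0.118% in cerebellum, and 2, 0 and 1 of the 34 had an unadjusted p under 0.05 (10.5%, 7.82% and 7.24% of all genes). The smallest p in cortex was that of Cyc1 (-0.08 in males against females, SE 0.0335, adjusted p = 0.390), and the smallest in cerebellum that of Cox11, a copper-binding assembly factor (-0.13, SE 0.0530, adjusted p = 0.612). DESeq2 called none. Without PON2-deficient male 5 of striatum, 32 of 34 were lower in males there (median -0.03), none passed (0.131% of all genes) and 0 had an unadjusted p under 0.05 (9.56% of all genes). With the length slope as a covariate none passed in any region (edgeR, 0.0527%, 0.132% and 0.112% of all genes in cortex, striatum and cerebellum). The genes lower in males were then 27, 32 and 26 of 34, and 11, 6 and 2 had an unadjusted p under 0.05 (6.68%, 10.6% and 9.02% of all genes).

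The 57 measured genes of the other pathway lists gave no call for genotype in any region either. In cortex the smallest adjusted p was that of Pprc1, a coactivator of nuclear respiratory genes (0.31, SE 0.0678, adjusted p = 0.0726). Of the 14 regulators 11 were higher in PON2-deficient cortex, with a median of 0.05, while the 34 genes were mostly lower. Over all genes the directions were nearly even in that comparison. With the length slope as a covariate 18 of the 34 genes were lower, and the regulators were not counted in that fit. In the complex II and III assembly factors 6 of 10 were lower, and in the complex IV assembly factors outside the set 11 of 20. In the isoform list, which held Ndufa4, 4 of 7 were lower. Ndufa4, a subunit now assigned to complex IV, had a log2 difference of -0.08 (adjusted p = 0.256). In cerebellum the smallest adjusted p was that of mt-Cytb (-0.15, SE 0.0415, adjusted p = 0.149), and in striatum mt-Cytb had a log2 difference of -0.19 (SE 0.0538, adjusted p = 0.720), also -0.19 without PON2-deficient male 5 (adjusted p = 0.333). Without that library none of the pathway genes passed in striatum.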

How the data were processed

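RNA was measured in 60 libraries of cortex, striatum and cerebellum. The authors deposited expected counts per gene, which need not be whole, log2 CPM values and a precision score (voom weight) per gene and library. The submitters' processing notes name Salmon, edgeR and limma. Tool versions, genome build, annotation and library strand were not given in the sources used here. Those log2 values the authors deposited equal voom's log2 CPM of the deposited counts, with a largest deviation of 5.33e-14.

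Counts were rounded and analysed with edgeR 4.0.16 in R 4.3.3 (TMM scaling, filterByExpr, quasi-likelihood F test, 2-sided, Benjamini-Hochberg over all genes tested, threshold 0.05). Each region had 1 fit of 20 libraries with 1 mean per sex and genotype, and the regions were compared in 1 fit over all 60. All 34 genes were kept by the filter in every fit. CPM values use TMM library sizes of all 60 libraries. A prior count of 2 was used for the log2 CPM behind the length slope, and a pseudocount of 1 for the median deviations of the 34 genes. Limma 3.58.1 and DESeq2 1.42.0 were alternatives, as were fits with libraries left out, and the fits by sex with 1 library left out or with other settings than DESeq2 and the block were chosen after seeing the data. The pipeline was tested on simulated data.

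The members and gene lists were chosen with earlier results of these data known. Named with values per library or range are the 4 genes with the smallest p for genotype in each region, the smallest in each sex, called genes, and the 3 largest rises and 3 largest falls between regions. From other pathway lists the rule names up to 4 called genes, or the 1 with the smallest p. Genes named for a count or a lack of overlap between groups were chosen after their values were seen. Gene symbols and positions come from GENCODE M21 (GRCm38), which matched 20403 of 20423 gene IDs (99.9%). Lengths are of principal transcripts and were used per kilobase only where a gene's agreed within 1.2 times. Markers of 11 cell types were checked, with no marker called in any genotype comparison.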

Additional observations from a re-analysis of the deposited data

Results flagged for a closer look

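Values that stood far from the other 4 libraries of their group were sought, with a gap to the nearest of over 0.71 of the group's range. They were found in 5 of 48 groups tested. Chance flags about 1 in 20 independent groups, but these groups share libraries, so that rate is no benchmark here. All 5 were in striatum. Cox17 measured 108 CPM in PON2-deficient male 5, against 49.5 to 52.6 CPM in the other PON2-deficient males. Uqcrq measured 229 CPM in the same library, against 102 to 128 CPM. Cyc1 measured 155 CPM in wild-type male 5, against 110 to 122 CPM in the other wild-type males, and Cox17 measured 50.5 CPM in that library, against 44.1 to 45.6 CPM. Cox17 measured 66.8 CPM in wild-type female 1, against 43.9 to 48.7 CPM in the other wild-type females. Wild-type male 5 also had the lowest length slope of striatum after PON2-deficient male 5, at -0.0543, and a mean weight of 0.381 of the regional median.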

How the results depend on the processing

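The count of genes called for genotype in cortex was 0 with edgeR, 2 with DESeq2 and 1 with limma and sample quality weights. In cortex males it was 1 with edgeR, 3 with DESeq2 and 0 with the length slope as a covariate, and with 1 cortical library left out it ranged from 0 to 1. For the difference between the sexes in cortex DESeq2 called 1 and edgeR 0. In striatum and cerebellum no alternative called a gene for genotype. The number of genes higher in cerebellum than in striatum was 13, and 21 with the deposited log2 values in limma (39.7% and 40.7% of all genes). It ranged from 12 to 21 with a replicate of every group left out, with 21 without replicate 5 (39.6% of all genes). The number lower in striatum than in cortex was 3, 7 with the deposited values (28.2% and 30.9% of all genes), and 2 to 6 with a replicate left out, with 6 without replicate 5 (28.7%). No called value reversed its sign. In striatum the median change over the 34 genes ran from -0.07 to 0.08 with 1 library left out, and was -0.05 with the deposited values and -0.00 with the length slope. Precision is set by 10 libraries per genotype and region.

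Whether equal replicate numbers in wild-type and PON2-deficient groups pair the samples is not given, and the correlations of their deviations cannot decide it. Of 30 such pairs 5 had a correlation over 0.1, with a range from -0.0896 to 0.449. In males the correlations ran from 0.0850 to 0.449 in striatum, 0.0178 to 0.245 in cerebellum and -0.0289 to 0.0898 in cortex. In females they ran from -0.0644 to 0.0560, -0.0896 to 0.0965 and -0.0451 to 0.116 in the same order. With the replicate block edgeR called 0 genes in cortex, with 30 lower (median -0.03), and 1 in cortex males, Uqcr11 (adjusted p = 0.0426). In striatum 12 were lower (median 0.02) and in cerebellum 17. Between regions the block gave 17 higher and 6 lower for cerebellum against cortex (40.2% and 39.7% of all genes), 15 and 7 for cerebellum against striatum (40.0% and 40.1%) and 8 and 3 for striatum against cortex (28.5% and 28.8%). Libraries of 1 group with equal numbers in 2 regions had correlations over 0.1 in 11 of 20 pairs for cerebellum and cortex (-0.0308 to 0.178), 9 of 20 for cerebellum and striatum (-0.0645 to 0.195) and 8 of 20 for striatum and cortex (-0.0832 to 0.235). Whether they share a mouse is not given, and without the block the fit between regions treats them as separate.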
